A study of Mus musculus with 12 samples.

Results

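The 33 genes described here belong to the uptake and breakdown of fatty acids, or to the control of these steps, and were measured in mouse muscle. They were chosen by symbol, as genes of fatty acid uptake, activation, carnitine transport and β-oxidation, and kept where the 12 libraries together held at least 15 counts. All 33 of the 43432 gene identifiers in the count table met that rule, and all 33 passed the low-count filter used for testing, which left 14486 genes. Cpt1c passed it through sedentary WT muscle alone. The other 32 genes had at least 1 count in every library.

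RNA was sequenced from gastrocnemius, the large calf muscle, of male mice in 4 groups with 3 libraries each. The exercised MKO and exercised WT groups ran for 90 min at 60% of maximal speed, and the sedentary MKO and sedentary WT groups did not. MKO stands for cFeimin MKO, named for the loss of cellular Feimin (cFeimin), and WT mice were fl/fl littermates, with floxed alleles and the gene intact. The ages of the mice, the Cre line, any pooling of animals and the delay between run and dissection are not stated in the sources used here. Nothing states that the 3 libraries of a group came from separate animals, so the p-values below measure only the spread between these libraries.

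Fatty acids enter a muscle fibre through transporters, are bound in the cytosol and are joined to coenzyme A by long-chain acyl-CoA synthetases. Carnitine palmitoyltransferase 1 on the outer mitochondrial membrane then commits them to oxidation, and malonyl-CoA inhibits that enzyme, so the enzymes that make and destroy malonyl-CoA set the rate of entry. Inside the mitochondrion, rounds of dehydrogenation, hydration, a second dehydrogenation and thiolysis release acetyl-CoA, and the electron transfer flavoprotein passes electrons to the respiratory chain. Slow and oxidative muscle fibres hold more of this machinery than fast glycolytic fibres.

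The depth was even, with 14324010 to 14563501 counts per library. The 33 genes took 0.270% to 0.512% of them, and genes of the mitochondrial genome 16.9% to 24.3%. The gene annotated as B230219D22Rik, taken here as the gene for Feimin from general knowledge, had 4.59, 4.07 and 3.52 CPM (counts scaled to 1000000 per library after normalisation) in exercised MKO muscle, against 24.8, 21.6 and 29.9 CPM in exercised WT muscle. It had 6.13, 5.01 and 3.63 CPM in sedentary MKO muscle, against 21.7, 24.3 and 22 CPM in sedentary WT muscle. It fell by 2.64 ± 0.18 in exercised and by 2.2 ± 0.18 in sedentary muscle on the log2 scale (SE; edgeR adjusted p = 0.000114 and 0.000589), with no overlap between the genotypes in either state. Fast-fibre markers summed to between 105820 and 156340 CPM and slow-fibre markers to between 1610 and 7657 CPM, in a tissue labelled as skeletal muscle. In bulk RNA, fewer cells of a type and less RNA per cell cannot be told apart.

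The summed level of the 33 genes differed most within the sedentary groups. It was 3704, 3870 and 3931 CPM in exercised MKO muscle (replicates 1, 2 and 4), 3543, 3357 and 3528 CPM in exercised WT muscle (replicates 3, 4 and 5), 4105, 4390 and 2349 CPM in sedentary MKO muscle (replicates 1, 2 and 3), and 3656, 4985 and 3492 CPM in sedentary WT muscle (replicates 1, 3 and 4). Sedentary MKO replicate 3 was thus the lowest of the 12 libraries and sedentary WT replicate 3 the highest. Of the 32 genes with a count in every library, 24 were lowest in sedentary MKO replicate 3, against 12.9% of the 14031 genes with a count in every library, and 21 were highest in sedentary WT replicate 3, against 8.26% of those genes. The 14 slow and oxidative fibre markers moved with the first of these: they summed to 7657, 7213 and 1610 CPM in sedentary MKO muscle and to 6479, 6261 and 4900 CPM in sedentary WT muscle. The mitochondrial genome took 22.6%, 21.2% and 16.9% of counts in sedentary MKO muscle and 22.1%, 24.3% and 20.1% in sedentary WT muscle. The part of fibre type in the levels of the 33 genes was not tested. Medians and calls that changed without 1 of these libraries are given with and without it below, while group means, SDs and counts of groups that do not overlap use all 12 libraries.

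**Figure D1:**
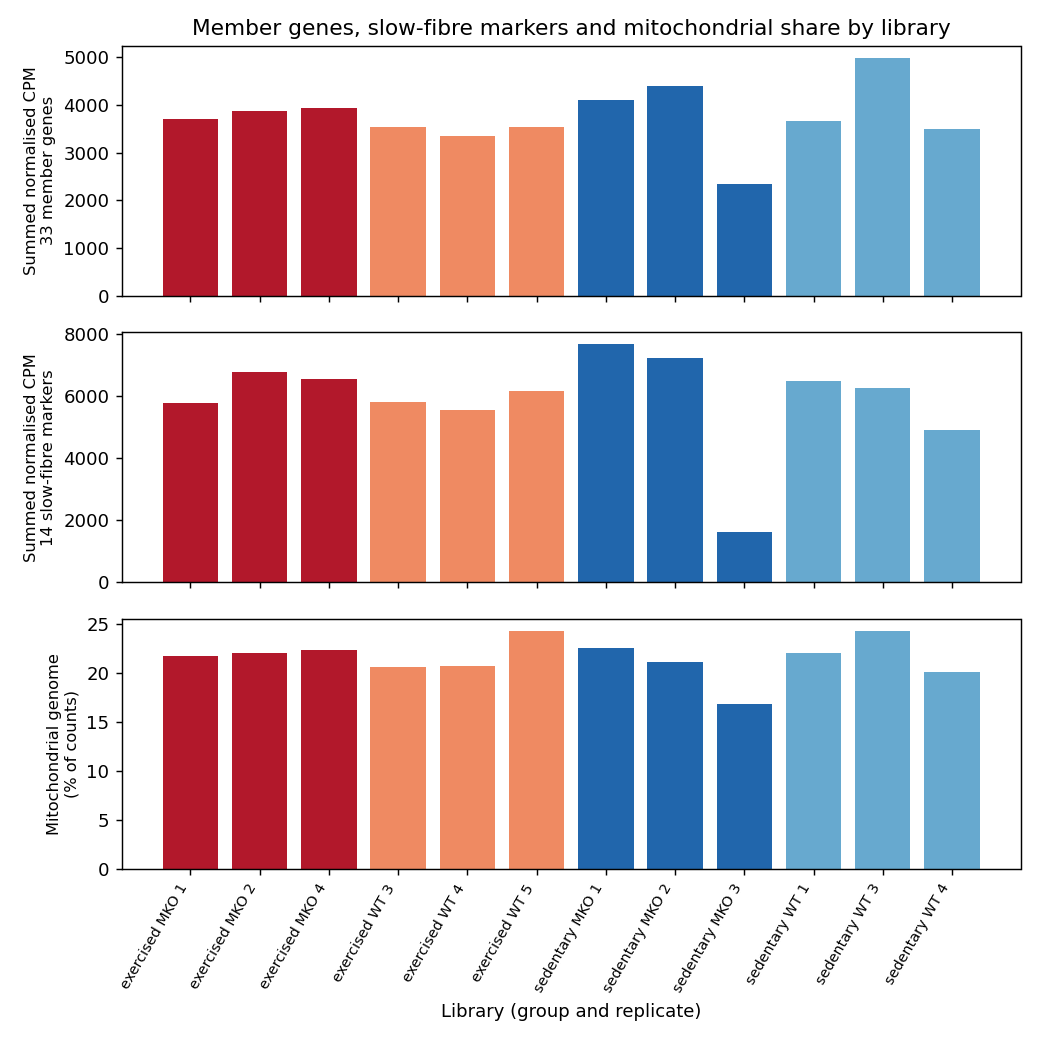
Bars show, for each of the 12 libraries, the summed normalised CPM of the 33 genes (top), the summed normalised CPM of 14 slow and oxidative fibre markers (middle) and the share of counts from the mitochondrial genome in percent (bottom). Sedentary MKO replicate 3 is lowest in all panels, at 2349 CPM, 1610 CPM and 16.9%, and sedentary WT replicate 3 has the highest sum of the 33 genes, at 4985 CPM.

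Among the 32 genes with a count in every library, edgeR made calls after exercise and none between genotypes. Mlycd fell after the run in WT muscle, and averaged over the genotypes Mlycd fell and Acsl6 rose. Cpt1c, which passed the low-count filter through sedentary WT muscle alone, is described by its counts, with no test. Mlycd encodes malonyl-CoA decarboxylase, which destroys the malonyl-CoA that inhibits carnitine palmitoyltransferase 1. Acsl6 encodes a long-chain acyl-CoA synthetase, and Cpt1c a carnitine palmitoyltransferase 1 isoform best known from neurons. The upstream sequence is shown for Mlycd and Acsl6 because they are the genes called, and for Cpt1c because it had counts in 1 group alone: each run is the RefSeq window of the GRCm38.p6 build from 250 bases before to 50 bases after an annotated start, 5′ to 3′ on the gene's strand. Capitals mark 3 motifs searched on both strands: AGGTCA or TGACCT (the core hexamer bound by nuclear receptors), TCAAGGTCA or TGACCTTGA (the longer element of estrogen-related receptors, which contains the hexamer) and GGGCGG or CCGCCC (the GC box). The windows are chr8:119394644-119394943 on the plus strand for Mlycd, chr11:54303574-54303873 on the plus strand for Acsl6 and chr7:44974802-44975101 on the minus strand for Cpt1c. RefSeq lists 3 starts for Acsl6, and the window printed is the one with the longest motif match.
Mlycd: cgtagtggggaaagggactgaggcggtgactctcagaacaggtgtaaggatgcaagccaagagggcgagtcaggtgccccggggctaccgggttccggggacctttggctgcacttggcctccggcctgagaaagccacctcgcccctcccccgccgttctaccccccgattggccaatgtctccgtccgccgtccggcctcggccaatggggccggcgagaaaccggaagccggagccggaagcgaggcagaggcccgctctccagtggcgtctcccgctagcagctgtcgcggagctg
Acsl6: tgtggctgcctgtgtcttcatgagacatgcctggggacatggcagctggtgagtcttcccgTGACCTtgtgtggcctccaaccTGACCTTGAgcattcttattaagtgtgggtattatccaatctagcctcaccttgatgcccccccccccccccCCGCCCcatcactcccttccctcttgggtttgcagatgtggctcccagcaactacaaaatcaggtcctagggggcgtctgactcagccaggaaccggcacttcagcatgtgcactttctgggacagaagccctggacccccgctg
Cpt1c: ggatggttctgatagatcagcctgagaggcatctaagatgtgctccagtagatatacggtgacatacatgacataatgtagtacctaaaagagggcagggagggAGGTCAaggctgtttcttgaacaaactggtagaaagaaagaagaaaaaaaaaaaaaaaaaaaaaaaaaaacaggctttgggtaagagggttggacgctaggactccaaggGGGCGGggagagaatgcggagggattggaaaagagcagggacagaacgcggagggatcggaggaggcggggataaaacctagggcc
The Mlycd window held none of the 3 motifs. The Acsl6 window held TGACCT at 2 places, 1 of them inside TGACCTTGA, and CCGCCC once, and the Cpt1c window held AGGTCA and GGGCGG once each. Of the 33 genes, 29 had a window in the table used. The hexamer was in a window of 7 of 29 (24.1%), against 18.1% of 27025 genes, the longer element in 1 of 29, against 0.466% of all genes, and the GC box in 22 of 29 (75.9%), against 38.2% of all genes. These matches describe letters and no binding was measured.

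For entry and activation, Slc27a1 (fatty acid transport protein 1) and Slc27a4 (a related transporter), Fabp3 (the fatty acid binding protein of heart and muscle cytosol) and 5 acyl-CoA synthetase genes were measured. Per kb of exon, Fabp3 was the highest of the 33 genes at 428 CPM per kb over the 12 libraries. It was followed by Etfb at 124, Acadvl at 98.1, Acadl at 97.6, Ech1 at 84.7, Acaa2 at 73.2 and Cpt1b at 68.7 CPM per kb. The length merges the exons of all annotated transcripts, and which transcripts the muscle used was not measured. Hadha had 326 CPM but 37.4 CPM per kb, with a merged length of 8730 bases. Shares and ratios per kb below carry the same limit. Acsl1 was the main synthetase at 19.7 CPM per kb, with Acsl6 at 3.16, Acsl3 at 2.38, Acsl4 at 2.16 and Acsl5 at 0.63 CPM per kb. Acsl1 made up 70.0 ± 2.1% of the family's level per kb in exercised MKO, 64.9 ± 2.37% in exercised WT, 70.5 ± 7.86% in sedentary MKO and 73.3 ± 4.62% in sedentary WT muscle (SD, n = 3 each), a range within the spread of the sedentary groups.

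Acsl6 (chromosome 11, 54303798 to 54364756, plus strand) had 32.4, 36.4 and 30.7 CPM in exercised MKO muscle, against 28.3, 28.3 and 26.1 CPM in sedentary MKO muscle. It had 31.7, 33.8 and 39.7 CPM in exercised WT muscle, against 27.5, 29.8 and 31.2 CPM in sedentary WT muscle. Exercised libraries lay above sedentary ones within each genotype. Averaged over the genotypes the log2 fold change was 0.26 ± 0.072 (SE; adjusted p = 0.0347, edgeR's quasi-likelihood test with Benjamini-Hochberg adjustment over 14486 genes, as in every test below), at 0.25 ± 0.10 in WT (edgeR adjusted p = 0.182) and 0.27 ± 0.10 in MKO muscle (edgeR adjusted p = 0.223). The call was lost in 9 of 12 fits that left out 1 library, with an edgeR adjusted p of up to 0.0938, and held without exercised MKO replicate 4, exercised WT replicate 3 or sedentary WT replicate 4. With libraries scaled by total counts alone, which placed the median of all genes at -0.12 in this comparison, Acsl6 stood at 0.13 (edgeR adjusted p = 0.210). Gm12224, an antisense gene that shares 202 exonic bases with Acsl6, held 6842 counts over the libraries, and strand use in counting is not stated, so reads of the overlap cannot be told apart.

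Fabp3 varied most among libraries. It had 373, 354 and 435 CPM in exercised MKO muscle and 277, 243 and 244 CPM in exercised WT muscle, which did not overlap. In sedentary muscle it had 415, 515 and 130.2 CPM in MKO and 317, 638 and 286 CPM in WT mice, and the outer values are the 2 libraries named above. Exercised MKO over exercised WT gave 0.60 ± 0.41 on the log2 scale (edgeR adjusted p = 0.474). Acsl1, the synthetase that feeds oxidation in muscle, had 197, 197 and 181 CPM in exercised MKO, 190.3, 174 and 180.3 CPM in exercised WT, 220.0, 257 and 148 CPM in sedentary MKO and 215, 328 and 185 CPM in sedentary WT muscle, and its groups overlapped in each comparison of 1 group with another. Its exercise change was -0.42 ± 0.22 in WT muscle (edgeR adjusted p = 0.299).

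Acsl4, a synthetase that prefers arachidonate, had 11, 11 and 8.27 CPM in exercised MKO muscle, against 15.4, 12.7 and 16.5 CPM in exercised WT muscle. In sedentary muscle it had 10.5, 9.96 and 11.4 CPM in MKO, against 11.7, 12.1 and 9.54 CPM in WT mice. The exercised WT libraries were the 3 highest of the 12. Exercised MKO over exercised WT was -0.56 ± 0.14 (edgeR adjusted p = 0.203), and exercised WT over sedentary WT was 0.42 ± 0.14 (edgeR adjusted p = 0.101). Neither passed. Acsl5 was low everywhere, at 3.36, 2.96 and 2.66 CPM in exercised MKO, 2.83, 2.29 and 3.10 CPM in exercised WT, 4.20, 3.61 and 2.90 CPM in sedentary MKO and 2.82, 2.97 and 3.09 CPM in sedentary WT muscle. Exercised over sedentary MKO was -0.25 ± 0.16 for Acsl5 (edgeR adjusted p = 0.554). Acsl3 ranged from 6.83 to 15.2 CPM with its highest value in sedentary MKO replicate 3, where most of the 33 genes were lowest. Slc27a1 averaged 63.1 ± 6.29 CPM in exercised MKO, 56.7 ± 6.61 in exercised WT, 59.9 ± 18.2 in sedentary MKO and 70.1 ± 9.25 CPM in sedentary WT muscle (SD, n = 3 each). Slc27a4 stayed between 6.71 and 8.86 CPM in all 12 libraries.

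Among the genes of the carnitine shuttle and its malonyl-CoA control, Mlycd (chromosome 8, 119394878 to 119411102, plus strand) had 63.4, 70.5 and 53.7 CPM in exercised WT muscle, against 80.3, 111 and 80.5 CPM in sedentary WT muscle. It had 67.8, 63.8 and 60.3 CPM in exercised MKO muscle, against 79.1, 75.9 and 61.6 CPM in sedentary MKO muscle. The WT groups did not overlap, whereas sedentary MKO replicate 3 lay within the exercised MKO range. Mlycd fell by 0.54 ± 0.15 on the log2 scale in WT muscle (edgeR adjusted p = 0.0491) and, averaged over the genotypes, by 0.36 ± 0.11 (edgeR adjusted p = 0.0460). In MKO muscle the change was -0.17 ± 0.15, and the responses differed by 0.36 ± 0.21 (MKO minus WT, edgeR adjusted p = 0.983). Both calls lie at the threshold: the WT one was lost in 11 of 12 fits that left out 1 library and held without sedentary MKO replicate 3, with adjusted p between 0.0346 and 0.190 and a log2 change of -0.36 without sedentary WT replicate 3. The averaged one was lost in 8 of 12. It held without exercised WT replicate 4, sedentary MKO replicate 3 or either of sedentary WT replicates 1 and 4. The WT call was also lost under other settings, given in the closing section, among them median-of-ratios scaling and limma-voom.

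Mlycd was also lower in every sedentary MKO library than in every sedentary WT library, at -0.33 ± 0.15 (edgeR adjusted p = 1), which did not pass. Acacb, the acetyl-CoA carboxylase that makes malonyl-CoA at the mitochondrial surface, had 183, 203.1 and 157 CPM in exercised MKO muscle, against 203.4, 208 and 233 CPM in exercised WT muscle. It had 190.2, 205 and 166 CPM in sedentary MKO muscle, against 220.4, 225 and 207 CPM in sedentary WT muscle. MKO libraries lay below WT libraries within each state. MKO over WT was -0.25 ± 0.11 in exercised (edgeR adjusted p = 0.321) and -0.22 ± 0.11 in sedentary muscle (edgeR adjusted p = 1), and -0.23 ± 0.081 as a mean of the states (edgeR adjusted p = 0.233). None of these passed.

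Cpt1b, the muscle isoform of carnitine palmitoyltransferase 1, had 225, 239 and 224 CPM in exercised MKO, 219.6, 223 and 214 CPM in exercised WT, 257, 271 and 161 CPM in sedentary MKO and 227, 289 and 229 CPM in sedentary WT muscle. It made up 98.5 ± 0.0755% of the level per kb of the 3 isoforms in exercised MKO, 97.9 ± 0.494% in exercised WT, 97.8 ± 0.812% in sedentary MKO and 97.9 ± 0.112% in sedentary WT muscle (SD, n = 3 each). Gm44502 shares 2744 exonic bases with Cpt1b on the same strand and is absent from the counts. How reads of that overlap were counted is not stated. The change of Cpt1b after the run in WT muscle was -0.18, with a 95% interval of -0.57 to 0.21 on the log2 scale. Cpt1a, the liver isoform, had 8.36, 8.30 and 7.55 CPM in exercised MKO muscle, against 9.06, 9.97 and 13.5 CPM in exercised WT muscle. In sedentary muscle it had 10.9, 10.1 and 11.7 CPM in MKO and 9.35, 11.9 and 10.1 CPM in WT mice. The exercised MKO libraries were the 3 lowest of the 12. Cpt1a stood at -0.43 ± 0.15 for exercised MKO over exercised WT (edgeR adjusted p = 0.231) and at -0.44 ± 0.15 for exercised over sedentary MKO (edgeR adjusted p = 0.158). Neither passed, nor did -0.19 ± 0.11 for exercised over sedentary as a mean of the genotypes (edgeR adjusted p = 0.286), which passed without exercised WT replicate 5 (edgeR adjusted p = 0.0430). Per kb, the level of Cpt1b over that of Cpt1a was 64.6 ± 3.18 in exercised MKO, 47.2 ± 9.97 in exercised WT, 48.4 ± 15.5 in sedentary MKO and 53.8 ± 2.08 in sedentary WT muscle (SD, n = 3 each).

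Cpt1c (chromosome 7, 44959372 to 44974851, minus strand) had 16, 13 and 16 counts in the sedentary WT libraries and 0 in the other 9. It averaged 1.02 ± 0.128 CPM in sedentary WT muscle (SD, n = 3). The floor of 3 counts per library lay 4.69-fold below that mean in exercised WT and 5.28-fold below it in sedentary MKO muscle. The counting error of the mean itself is left out of these ratios. The group that let Cpt1c through the filter is the one where it is high, so no p is given for it. Its level is near the limit of detection, and the floors cover counting error only. The antisense gene 6530437J22Rik shares 366 exonic bases with Cpt1c and is absent from the counts. Strand use in counting is not stated, so reads of that overlap cannot be told apart. Slc25a20, the carnitine-acylcarnitine carrier of the inner membrane, had 51.4, 53.0 and 58.0 CPM in exercised MKO, 49.5, 49.9 and 52.1 CPM in exercised WT, 61.5, 69.8 and 42.5 CPM in sedentary MKO and 56.8, 77.1 and 57.5 CPM in sedentary WT muscle. Cpt2, which re-forms acyl-CoA inside the mitochondrion, averaged 59.2 ± 1.004 CPM in exercised MKO, 54.2 ± 3.87 in exercised WT, 59.5 ± 14.4 in sedentary MKO and 62.3 ± 12.5 CPM in sedentary WT muscle (SD, n = 3 each).

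**Figure D2:**
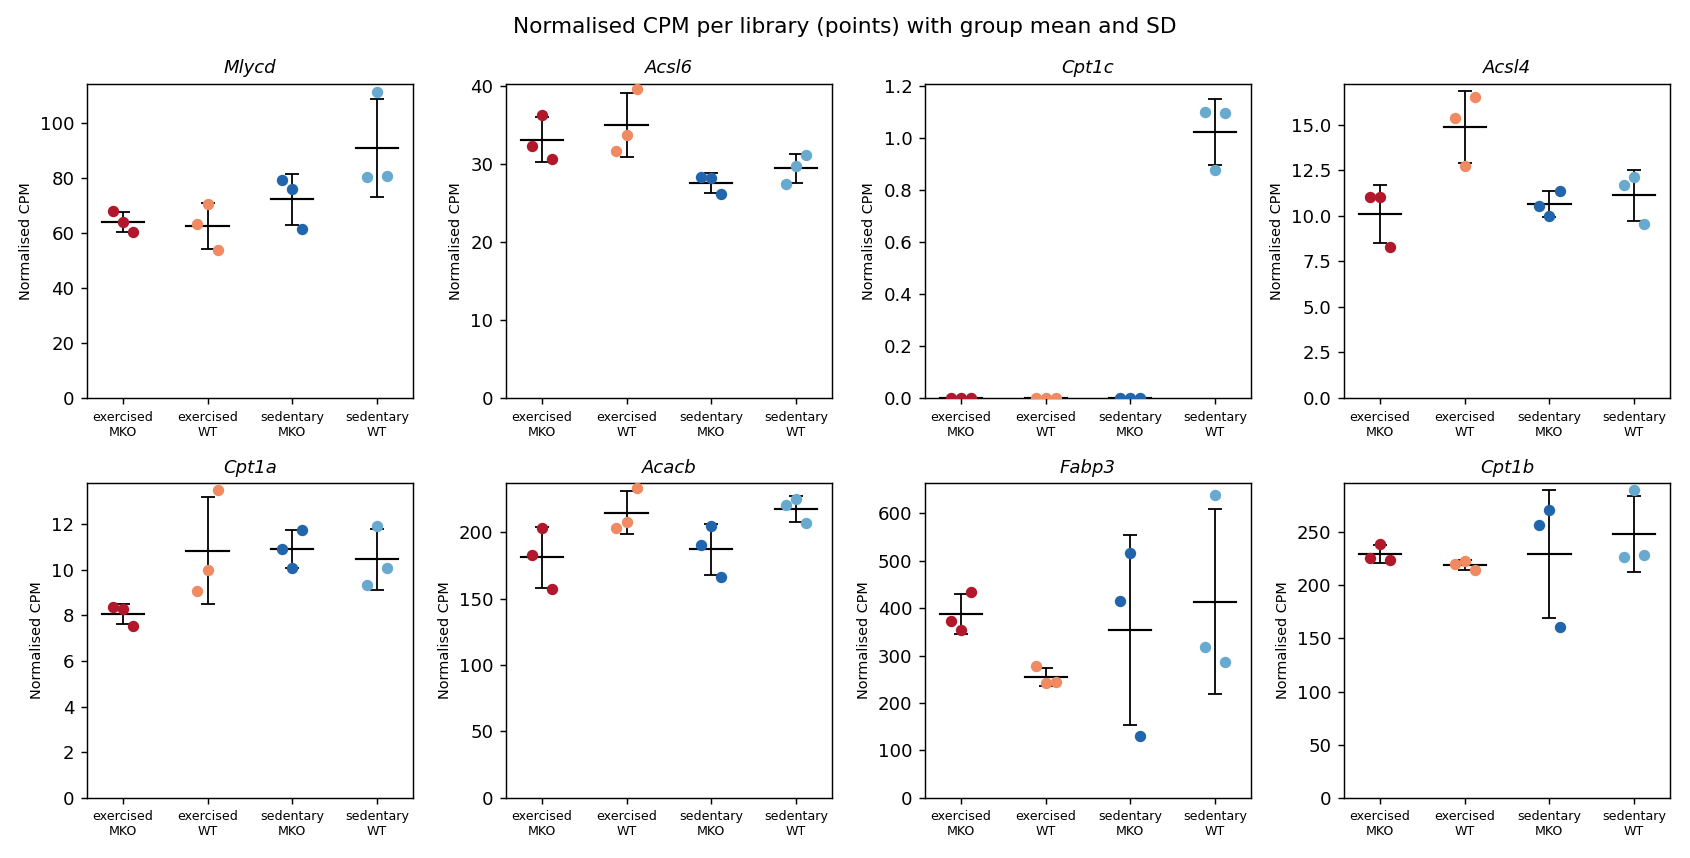
Points are normalised CPM in single libraries of the 4 groups for 8 of the 33 genes, with the group mean (line) and SD (bars, n = 3). Exercised WT libraries are lower than sedentary WT libraries for Mlycd (53.7 to 70.5 against 80.3 to 111 CPM), and Cpt1c has counts in sedentary WT muscle alone.

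The acyl-CoA dehydrogenases Acadvl, Acadl, Acadm and Acads carry out the initial dehydrogenation of very long, long, medium and short acyl chains. Acadvl averaged 281 ± 30.2 CPM in exercised MKO, 237 ± 12.8 in exercised WT, 254 ± 91.3 in sedentary MKO and 282 ± 54.7 CPM in sedentary WT muscle (SD, n = 3 each). Acadvl shares 1151 exonic bases with Dvl2 on the opposite strand, which held 1066 counts over the libraries. Acads had 53.8, 58.8 and 58.6 CPM in exercised MKO muscle, against 51.5, 47.9 and 46.2 CPM in exercised WT muscle. It had 52.8, 54.2 and 37.0 CPM in sedentary MKO muscle, against 51.8, 54.8 and 42.7 CPM in sedentary WT muscle. The exercised groups did not overlap, and MKO over WT was 0.23 ± 0.14 there (edgeR adjusted p = 0.425). Exercised over sedentary MKO was 0.25 ± 0.14 (edgeR adjusted p = 0.463). Acadl averaged 201 ± 19.0 CPM in exercised MKO and 179 ± 9.07 CPM in exercised WT muscle, and Acadm 199 ± 5.47 CPM in exercised MKO and 203 ± 20.5 CPM in exercised WT muscle (SD, n = 3 each). All 4 genes were lowest in sedentary MKO replicate 3, at 149 CPM for Acadvl, 125 for Acadl, 129 for Acadm and 37.0 CPM for Acads.

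For hydration, the second oxidation and thiolysis, Hadha and Hadhb encode the subunits of the mitochondrial trifunctional protein, which handles long chains, while Echs1 (hydratase), Hadh (dehydrogenase) and Acaa2 (thiolase) handle shorter ones. Hadha averaged 341 ± 15.9 CPM in exercised MKO, 320.1 ± 18.1 in exercised WT, 301 ± 98.4 in sedentary MKO and 342 ± 69.9 CPM in sedentary WT muscle (SD, n = 3 each). Hadhb averaged 161 ± 3.51 CPM in exercised MKO, 153 ± 13.9 in exercised WT, 148 ± 44.8 in sedentary MKO and 171 ± 37.5 CPM in sedentary WT muscle (SD, n = 3 each). Acaa2 had 119, 126 and 131 CPM in exercised MKO muscle, against 108, 94.8 and 95.6 CPM in exercised WT muscle, with no overlap. It had 132, 133 and 52.0 CPM in sedentary MKO muscle, against 102, 149.6 and 89.0 CPM in sedentary WT muscle. Acaa2 stood at 0.33 ± 0.29 for exercised MKO over exercised WT (edgeR adjusted p = 0.583). Acat1 (acetoacetyl-CoA thiolase) ranged from 102 to 204 CPM, Hadh from 86.4 to 172 CPM and Echs1 from 34.1 to 71.2 CPM, each with its lowest value in sedentary MKO replicate 3. Acaa1a, a peroxisomal thiolase, ranged less, from 20.02 to 26.8 CPM. Its near-identical copy Acaa1b is annotated, so reads may be split between them.

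Of the auxiliary enzymes for unsaturated chains, Eci1 and Eci2 are enoyl-CoA isomerases, Decr1 a dienoyl-CoA reductase and Ech1 a dienoyl-CoA isomerase. Eci2 had 38.4, 38.5 and 37.9 CPM in exercised WT muscle, against 43.7, 50.2 and 43.2 CPM in sedentary WT muscle. It had 40.8, 41.0 and 41.5 CPM in exercised MKO muscle, against 42.6, 47.5 and 40.6 CPM in sedentary MKO muscle. The WT groups did not overlap, but the exercise change of -0.26 ± 0.086 in WT muscle did not pass (edgeR adjusted p = 0.0967), nor did -0.17 ± 0.061 as a mean of the genotypes (edgeR adjusted p = 0.0928). With total counts alone both passed (edgeR adjusted p = 0.0296 in WT muscle and 0.00766 as a mean), where the median of all genes also moved by -0.10 and -0.12. Ech1 had 212, 215 and 226 CPM in exercised MKO muscle, against 174, 173 and 163 CPM in exercised WT muscle, with no overlap, at 0.36 ± 0.24 (edgeR adjusted p = 0.473). In sedentary muscle Ech1 had 225, 227 and 106 CPM in MKO and 174, 252 and 175 CPM in WT mice. Eci1 averaged 87.6 ± 5.58 CPM in exercised MKO and 74.2 ± 4.59 CPM in exercised WT muscle, and Decr1 82.6 ± 1.42 CPM in exercised MKO and 73.6 ± 2.66 CPM in exercised WT muscle (SD, n = 3 each).

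Etfa and Etfb encode the subunits of the electron transfer flavoprotein and Etfdh the dehydrogenase that passes the electrons to ubiquinone. Etfb had 146, 168 and 180.5 CPM in exercised MKO muscle, against 145, 147 and 123 CPM in exercised WT muscle, which overlapped. Etfb shares 617 exonic bases with Gm45233, which is on the same strand and absent from the counts. Etfa averaged 92.4 ± 4.77 CPM in exercised MKO, 94.3 ± 9.60 in exercised WT, 91.1 ± 27.9 in sedentary MKO and 96.9 ± 12.7 CPM in sedentary WT muscle (SD, n = 3 each). Etfdh averaged 82.8 ± 7.17 CPM in exercised MKO, 85.1 ± 9.28 in exercised WT, 88.0 ± 32.1 in sedentary MKO and 102 ± 22.6 CPM in sedentary WT muscle (SD, n = 3 each). No gene of this trio passed in any comparison.

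**Figure D3:**
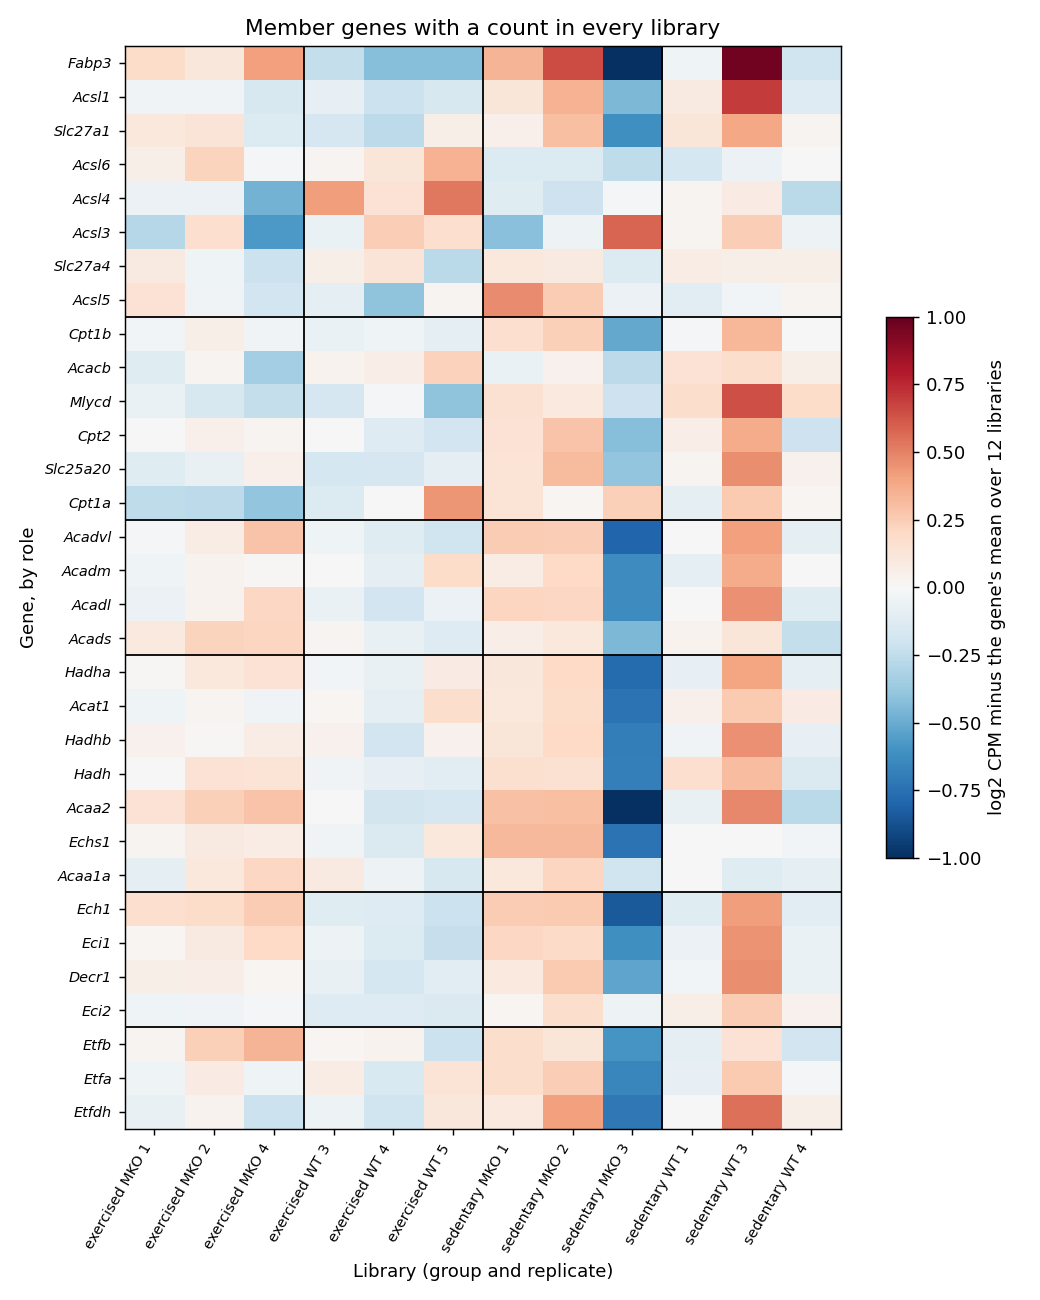
Colour gives log2 CPM minus the gene's own mean over the 12 libraries for the 32 genes with a count in every library, with genes in rows by role and libraries in columns by group (black lines). Sedentary MKO replicate 3 is low for most genes and sedentary WT replicate 3 high, while Acsl6, Acsl4, Acsl3 and Cpt1a follow other patterns.

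Cpt1c is left out of the counts of calls that follow. In exercised against sedentary WT muscle edgeR called 1 of 32 genes, Mlycd, which was lower, where 4.1% of the genes tested were called lower and 8.24% in either direction. As a mean of the genotypes, 2 of 32 were called, Acsl6 higher and Mlycd lower, where 6.16% of all genes were called higher, 7.4% lower and 13.6% in either direction. In MKO muscle edgeR called 0 of 32 after the run, where 4.05% of all genes were called, and DESeq2 and limma-voom called 0. At an unadjusted p under 0.05 there were 2 of 32 in MKO muscle. That count has no share of all genes beside it and is not read as a result. The difference of the exercise responses (MKO minus WT) was called by edgeR for 0 of 32 and 0 of all 14486 genes, with 2 of 32 and 534 of all at an unadjusted p under 0.05, and DESeq2 and limma-voom called 0 of 32. Acsl4 at -0.49 ± 0.20, Cpt1a at -0.49 ± 0.21, Mlycd at 0.36 ± 0.21 and Acads at 0.29 ± 0.20 had the smallest p there (edgeR adjusted p = 0.983 each).

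Between genotypes edgeR called 0 of 32 in exercised muscle (0.0345% of all genes), 0 of 32 in sedentary muscle (0.0069%) and 0 of 32 as a mean of the states (0.0138%). At an unadjusted p under 0.05 there were 2 of 32 in exercised muscle, 1 of 32 in sedentary muscle and 2 of 32 as a mean of the states. The share of all genes under that cut-off is not given beside these counts, so they are not read as a result. DESeq2 and limma-voom called 0 of 32 in each. As a mean of the states the smallest p were those of Acsl4 at -0.31 ± 0.10 (edgeR adjusted p = 0.210), Acacb, given above, Cpt1a at -0.18 ± 0.11 (edgeR adjusted p = 0.420) and Acsl5 at 0.20 ± 0.12 (edgeR adjusted p = 0.431). In sedentary muscle Acsl5 stood at 0.27 ± 0.16 (edgeR adjusted p = 1).

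The groups of 3 libraries did not overlap for a share of the 33 genes. Exercised MKO libraries lay above exercised WT libraries for 10 of 33 (11.1% of all genes tested) and below for 3 of 33 (12% of all genes). The 10 were Fabp3, Cpt1b, Acadvl, Acads, Hadh, Acaa2, Eci1, Eci2, Decr1 and Ech1, which include all 4 auxiliary enzymes, and the 3 were Acsl4, Cpt1a and Acacb. None of these 13 genes passed the test in that comparison. Slow and oxidative fibre markers moved in the same direction: 12 of 14 had a positive fold change for exercised MKO over exercised WT (51.1% of all genes). Their median was 0.32 on the log2 scale, with 0 called. They summed to between 5778 and 6763 CPM in exercised MKO and between 5531 and 6144 CPM in exercised WT muscle, and their part in the result was not tested. Sedentary MKO libraries lay above sedentary WT libraries for 0 of 33 (5.43%) and below for 3 of 33 (4.91%), which were Acacb, Mlycd and Cpt1c, the last with counts in sedentary WT muscle alone. Exercised WT libraries lay above sedentary WT libraries for 2 of 33 (12.5%) and below for 8 of 33 (14.8%), Cpt1c among them. Cpt1c passed the low-count filter through sedentary WT muscle alone. Its place in both counts below sedentary WT muscle was thus fixed in advance and is no result. Without it, Acacb and Mlycd were left in the sedentary comparison. Exercised MKO libraries lay above sedentary MKO libraries for 1 of 33, Acsl6 (10.1%), and below for 1 of 33, Cpt1a (11.6%).

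Most medians over the 32 genes moved with single libraries. Exercised over sedentary WT muscle had a median log2 fold change of -0.17, with 27 of 32 genes negative, where the median of all genes tested was -0.01 and 51.1% were negative. With each library left out the median stayed negative, from -0.24 to -0.04, and it was -0.04 without sedentary WT replicate 3. Exercised over sedentary MKO muscle had a median of 0.05, with 20 of 32 positive against 50.4% of all genes, but -0.12 without sedentary MKO replicate 3 and -0.09 with total counts alone. These comparisons share no library with each other. MKO over WT in exercised muscle had a median of 0.10, with 22 of 32 positive against 51.1% of all genes, and 0.07 to 0.11 with each library left out. MKO over WT in sedentary muscle had a median of -0.13, with 27 of 32 negative against 49.4% of all genes, and 0.04 without sedentary MKO replicate 3. The difference of the responses had a median of 0.22, with 26 of 32 positive against 51.2% of all genes, which was 0.03 without sedentary MKO replicate 3. The genotype comparisons use the same 12 libraries as the exercise comparisons, so these medians are not independent of each other.

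**Figure D4:**
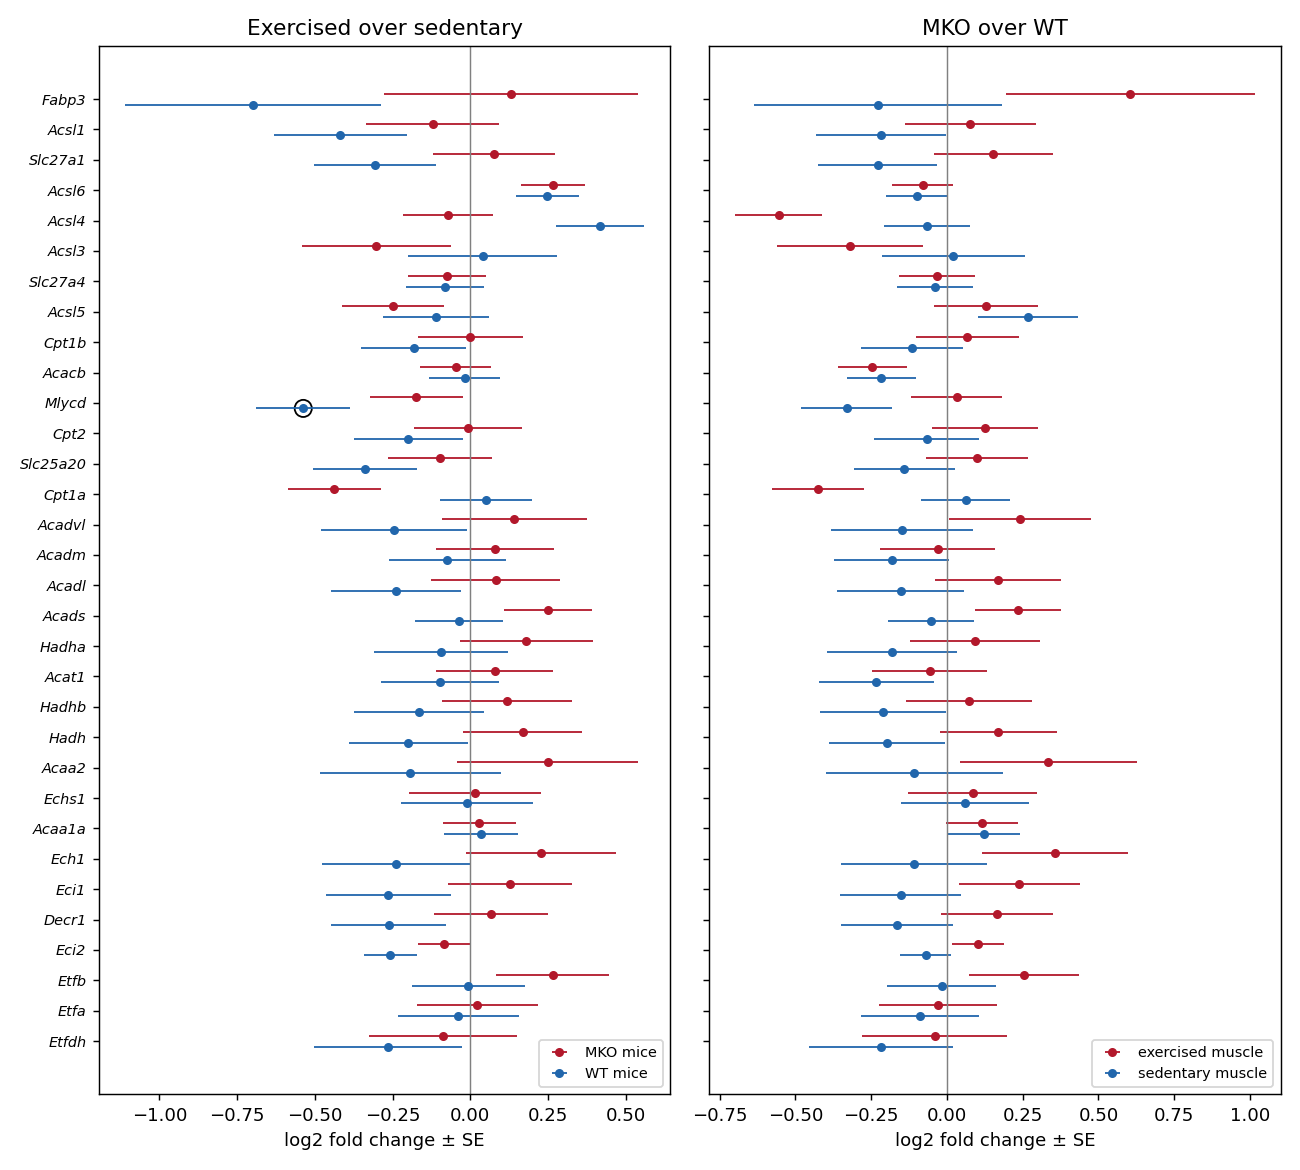
Points are log2 fold changes with their SE for 32 genes, exercised over sedentary in MKO and WT mice (left) and MKO over WT in exercised and sedentary muscle (right), and the ring marks the call that passed, Mlycd in WT mice at -0.54. Cpt1c, with counts in sedentary WT muscle alone, is not drawn.

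Genes around the pathway were counted in 5 lists, against the 8.24% of all genes called in WT and 4.05% called in MKO muscle after the run. In the list of peroxisome proliferator-activated receptors (PPARs), estrogen-related receptors, coactivators and other targets, 1 of 17 genes tested rose and 4 fell after the run in WT muscle, and 1 rose and 1 fell in MKO muscle. Pdk4, the kinase that turns pyruvate away from oxidation, had 166, 178 and 302 CPM in exercised WT muscle, against 1662, 1375 and 1189 CPM in sedentary WT muscle. It had 326, 253 and 427 CPM in exercised MKO muscle, against 1262, 1102 and 886 CPM in sedentary MKO muscle. Exercised libraries were far below sedentary ones in both genotypes, and Pdk4 fell by 2.71 ± 0.27 on the log2 scale in WT (edgeR adjusted p = 0.000105) and by 1.69 ± 0.26 in MKO muscle (edgeR adjusted p = 0.00369). The difference of 1.02 ± 0.35 (MKO minus WT) did not pass (edgeR adjusted p = 0.983).

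Angptl4 encodes an inhibitor of lipoprotein lipase. It fell by 3.29 ± 0.55 in WT muscle (edgeR adjusted p = 0.00311) and stood at -1.85 ± 0.49 in MKO muscle (edgeR adjusted p = 0.0638, DESeq2 adjusted p = 0.00815). Ucp3, an uncoupling protein of muscle mitochondria, fell by 0.85 ± 0.17 in WT muscle (edgeR adjusted p = 0.00816) and stood at -0.41 ± 0.17 in MKO muscle (edgeR adjusted p = 0.262). Acot1, a cytosolic acyl-CoA thioesterase, fell by 1.74 ± 0.31 in WT muscle (edgeR adjusted p = 0.00446). Ppard, the PPAR most abundant in muscle, had 45.3, 51.8 and 43.4 CPM in exercised WT muscle, against 36.8, 29.7 and 35.7 CPM in sedentary WT muscle. It rose by 0.46 ± 0.10 in WT (edgeR adjusted p = 0.0162) and by 0.54 ± 0.10 in MKO muscle (edgeR adjusted p = 0.0118). The Ppard calls were lost in some fits that left out 1 library, for WT without exercised WT replicate 4 or sedentary WT replicate 3 (edgeR adjusted p of up to 0.0690) and for MKO without exercised MKO replicate 2 (0.0553). Ppargc1a, the coactivator that drives mitochondrial genes, had 86.6, 68.8 and 71.9 CPM in exercised MKO and 50.2, 65.7 and 174 CPM in exercised WT muscle. It had 40.9, 30.4 and 18.3 CPM in sedentary MKO and 59.2, 32.0 and 40.3 CPM in sedentary WT muscle. Ppargc1a rose by 1.24 ± 0.30 as a mean of the genotypes (edgeR adjusted p = 0.0168). Neither genotype passed alone, at 1.14 in WT (edgeR adjusted p = 0.136) and 1.34 in MKO muscle (edgeR adjusted p = 0.124). The WT change was 0.40 without exercised WT replicate 5.

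In the list of AMP-activated kinase (AMPK) and acetyl-CoA carboxylase control genes, 1 of 10 genes rose and 0 fell in either genotype. That gene was Stk11, which encodes the AMPK-activating kinase LKB1. It had 157, 176 and 178 CPM in exercised WT muscle, against 79.6, 77.9 and 87.3 CPM in sedentary WT muscle. It had 126, 149.5 and 117 CPM in exercised MKO muscle, against 82.6, 87.6 and 79.1 CPM in sedentary MKO muscle. Stk11 rose by 1.06 ± 0.11 in WT (edgeR adjusted p = 0.000116) and by 0.66 ± 0.11 in MKO muscle (edgeR adjusted p = 0.00472). Prkaa1, a catalytic AMPK subunit, fell by 0.25 ± 0.064 as a mean of the genotypes (edgeR adjusted p = 0.0244), a call lost by DESeq2 (adjusted p = 0.157) and in 6 of 12 fits that left out 1 library (edgeR adjusted p of up to 0.0633).

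In the list of other uptake, binding and carnitine genes, 0 of 12 genes tested were called in either genotype alone. As a mean of the genotypes, where 7.4% of all genes were called lower, 2 of the 12 fell. These were Cd36, the main fatty acid transporter of the muscle membrane, by 0.61 ± 0.18 (edgeR adjusted p = 0.0453), and Fabp4, the binding protein of fat and endothelial cells, by 0.52 ± 0.13 (edgeR adjusted p = 0.0192). Cd36 had 103, 97.9 and 72.7 CPM in exercised MKO, 99.3, 86.1 and 123 CPM in exercised WT, 146, 164 and 86.6 CPM in sedentary MKO and 151, 219 and 127 CPM in sedentary WT muscle, and its call held in 3 of 12 fits that left out 1 library, namely exercised WT replicate 5, sedentary MKO replicate 3 or sedentary WT replicate 4 (edgeR adjusted p of up to 0.113 in the others). The Fabp4 call was lost without exercised WT replicate 3 or 4 (edgeR adjusted p of up to 0.0532). In the list of other mitochondrial acyl-CoA genes, 1 of 20 fell in WT muscle and 0 were called in MKO muscle: Acot2, a mitochondrial thioesterase, fell by 1.58 ± 0.30 (edgeR adjusted p = 0.00626). In the list of peroxisomal oxidation genes, 1 of 16 fell in WT muscle and 0 were called in MKO muscle: Cat, the catalase gene, fell by 0.61 ± 0.16 (edgeR adjusted p = 0.0369), a call that held without sedentary WT replicate 4 or any 1 sedentary MKO library and was lost in the other 8 of 12 fits (edgeR adjusted p of up to 0.147). None of these lists had a call between genotypes.

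**Figure D5:**
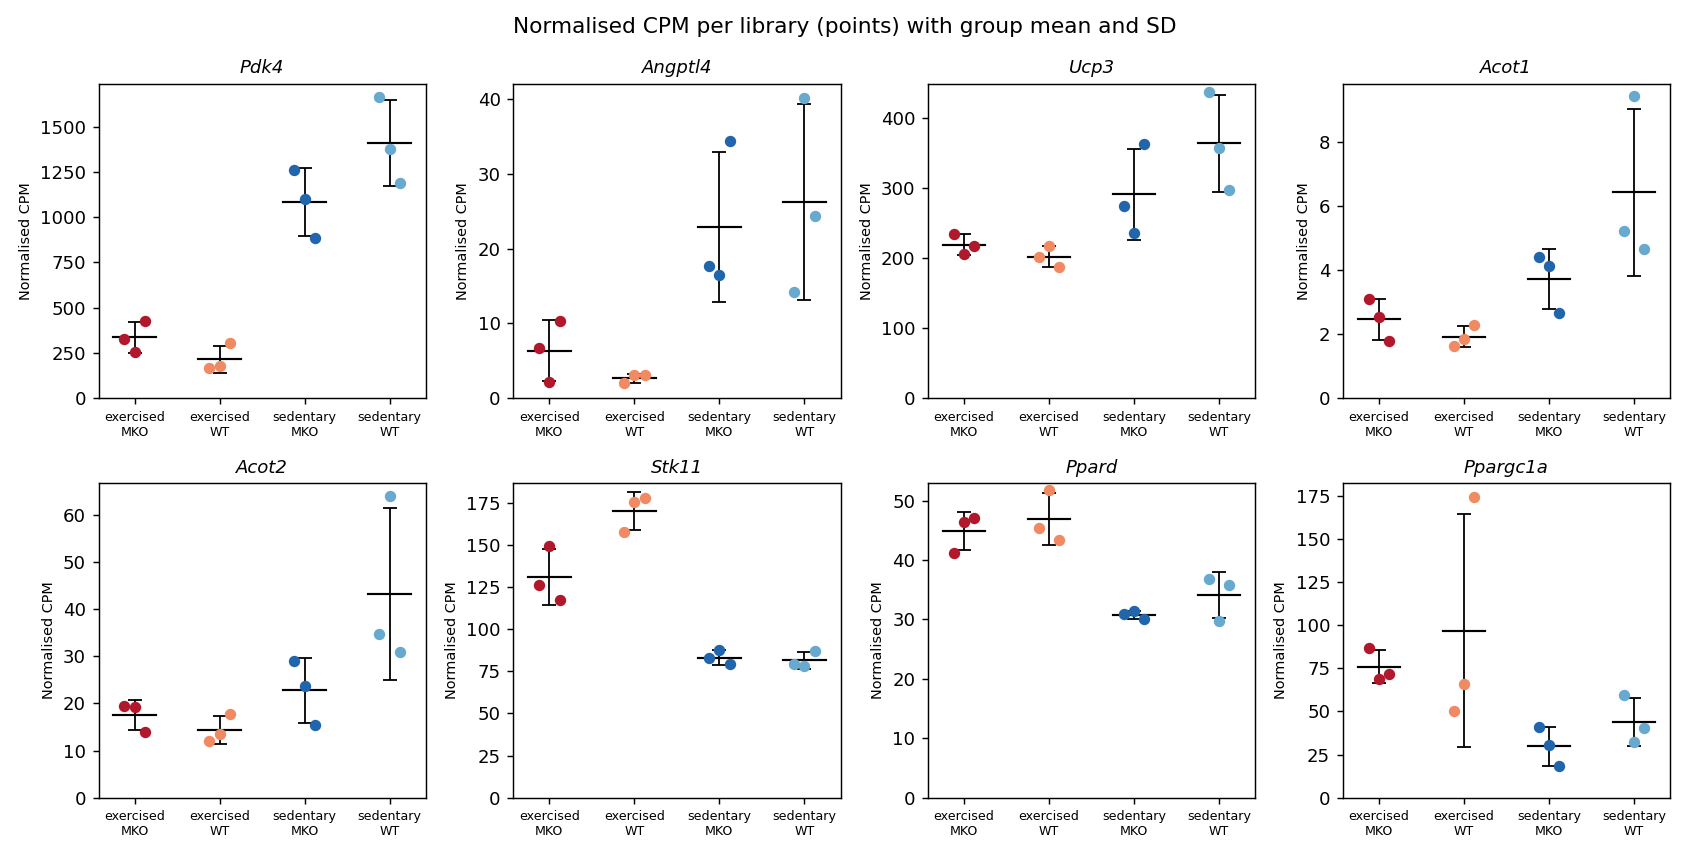
Points are normalised CPM in single libraries of the 4 groups for 8 genes around the pathway, with the group mean (line) and SD (bars, n = 3). Exercised libraries are lower than sedentary ones in both genotypes for Pdk4 (166 to 427 against 886 to 1662 CPM) and higher for Stk11 (117 to 178 against 77.9 to 87.6 CPM).

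Markers of other cells moved with some of these comparisons, and their part in the results was not tested. Macrophage markers summed to 62.9 to 149 CPM in exercised MKO, 48.1 to 59.5 CPM in exercised WT, 117 to 161 CPM in sedentary MKO and 75.0 to 108 CPM in sedentary WT muscle. Of the 9 tested, 9 had a positive fold change for MKO over WT in each state and 0 were called. Of all genes, 51.1% were positive in exercised and 49.4% negative in sedentary muscle there. After the run in WT muscle 9 of 9 macrophage markers were negative and 2 were called lower. In MKO muscle 7 of 9 were negative and 1 was called lower. Of all genes, 51.1% were negative and 4.1% called lower in WT muscle. In MKO muscle 50.4% were positive and 4.05% called in either direction. Red blood cell markers summed to 513 to 837 CPM in exercised MKO, 447 to 574 CPM in exercised WT, 1358 to 2279 CPM in sedentary MKO and 419 to 1685 CPM in sedentary WT muscle. Adipocyte markers, a list that holds Fabp4, summed to 357 to 389 CPM in exercised MKO, 390.0 to 582 CPM in exercised WT, 369 to 390.5 CPM in sedentary MKO and 371 to 442 CPM in sedentary WT muscle, with the defining genes Lep, Plin1, Retn and Adrb3 at 0 in some libraries of every group. Endothelial markers summed to 199 to 277 CPM in exercised MKO, 265 to 313 CPM in exercised WT, 229 to 297 CPM in sedentary MKO and 244 to 296 CPM in sedentary WT muscle. Of the 10 endothelial markers, 3 were called higher and 1 lower after the run in WT muscle, and 1 higher and 1 lower in MKO muscle. Of all genes tested, 8.24% were called in WT and 4.05% in MKO muscle after the run. Schwann cell markers summed to 61.9 to 295 CPM in exercised MKO, 83.5 to 220.3 CPM in exercised WT, 80.7 to 384 CPM in sedentary MKO and 69.4 to 172 CPM in sedentary WT muscle.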

How the data were processed

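RNA was sequenced from 12 gastrocnemius libraries on a DNBSEQ instrument, and the library protocol in the labels speaks of 18 libraries, the rest of which were not analysed here. The authors deposited whole-number read counts per gene, not normalised. Per the submitters' processing notes, the tools were HISAT2 2.2.1, StringTie 2.1.4, SAMtools 1.9, FastQC 0.12.1 and DESeq2 1.40.2, with the build GRCm38.p6 (mm10). Strand use, multi-mapped reads and the annotation were not given in the sources used here. GENCODE M21 gave symbols and positions (42548 of 43432 identifiers matched), and RefSeq the promoter windows.

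Counts were filtered with filterByExpr (minimum count 10, total 15), scaled by TMM and tested in edgeR 4.0.16 (R 4.3.3) with 1 mean for each of the 4 groups, all 12 libraries and 8 residual degrees of freedom. Benjamini-Hochberg adjustment ran over 14486 genes in each of 7 comparisons, and a gene was called at an adjusted p under 0.05. CPM are counts scaled to 1000000 of the TMM-adjusted library size, and CPM per kb divides them by the merged exon length. An absent gene was set to a floor of 3 counts per library (0.181 to 0.222 CPM). Floors cover counting error only, and a deeper library has a lower floor. Interval bounds are at 95%.

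The 33 genes, the lists beside them and the tests were chosen with earlier results of these data known. In each comparison the genes called, and otherwise the 4 of smallest p, were named, with up to 4 called genes per other list. The lists were 6 groups by role, other uptake, binding and carnitine genes, other mitochondrial acyl-CoA genes, peroxisomal oxidation genes, AMPK and acetyl-CoA carboxylase control genes, PPARs, estrogen-related receptors, coactivators and targets, and markers of 7 cell and fibre types. Replicate numbers were not used to pair the libraries in the main fit. Alternatives were 2 other scalings, DESeq2 1.42.0, limma-voom 3.58.1, a filter of at least 1 CPM in 3 libraries, no filter, a replicate block, a fit to the compared groups alone, leaving out each library, leaving out 3 libraries together and, chosen after seeing the data, mitochondrial genes removed. The tests were tried on simulated counts beforehand. Replicates were compared within each group, and no library was a duplicate of another in its group.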

Additional observations from a re-analysis of the deposited data

How the results depend on the processing

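Of 661 values of single genes under another setting, 617 kept their direction and their side of the threshold, 34 lost a call, 10 gained one and 0 reversed. Of 828 with 1 library left out, the numbers were 757, 65, 6 and 0. These values mix named genes among the 33, Cpt1c included, with named genes outside them. Many were not called in the main fit, where staying uncalled counts as kept. Counts of calls moved more. The calls among the 33 genes given below leave out Cpt1c, which passed the filter through sedentary WT muscle alone. In exercised against sedentary WT muscle the Mlycd call was lost with median-of-ratios scaling, limma-voom, no filter, a fit to the compared groups alone or mitochondrial genes removed. It was also lost with 3 libraries left out (exercised MKO replicate 4, sedentary MKO replicate 3 and exercised WT replicate 5). DESeq2, total counts alone and the filter at 1 CPM kept the Mlycd call, and it held in 1 of 12 fits that left out 1 library. As a mean of the genotypes the 2 calls were Acsl6 and Mlycd. They became 0 with no filter or the 3 libraries left out. With total counts alone the genes called were Slc25a20, Mlycd and Eci2, all lower, and the Acsl6 call was lost. With mitochondrial genes removed 1 was left, Acsl6, and the number was 0 to 2 with each library left out. Over all genes, MKO against WT in sedentary muscle called 1 gene, with 2 by DESeq2, 3 by limma-voom, 2 with the compared groups alone, 3 without the 3 libraries and 1 to 3 with each library left out. In exercised muscle 5 genes became 120 by DESeq2, 2 with no filter and 2 to 108 with each library left out. As a mean of the states 2 became 4 with total counts alone, 134 by DESeq2, 10 by limma-voom, 6 without the 3 libraries and 2 to 163 with each left out. The difference of the responses went to 1 with total counts alone, 3 by DESeq2, 4 by limma-voom, 3 without the 3 libraries and 0 to 3 with each left out. Exercised against sedentary MKO muscle called 316 to 629 genes with each library left out, around 586. Scaling by total counts alone changed the split of calls to 469 higher and 863 lower in WT muscle (599 and 594 otherwise) and to 259 higher and 596 lower in MKO muscle (332 and 254 otherwise). Same-numbered libraries deviated from their group means with a correlation of -0.00388 on average over 10 pairs, from -0.153 to 0.0759. The average was 0.000809 over 44 pairs of unlike number. An average over all genes cannot tell whether part of the genes were linked by number, and this was not tested. With the replicate number as a block, 0 of the 32 genes were called in WT muscle and 0 as a mean of the genotypes. All genes called then numbered 602 in WT, 361 in MKO, 2 between genotypes in exercised and 0 in sedentary muscle. The median log2 fold change of MKO over WT in exercised muscle over 32 genes turned to -0.03. The cause of these changes was not tested. The Mlycd and Acsl6 calls rest on 3 libraries a group and lie near the threshold, and genes under the low-count filter were not tested.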

Other observations

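Of the 43432 gene identifiers in the table, Cpt1c alone had at least 10 counts in each of the 3 sedentary WT libraries and 0 in the other 9, a pattern looked for after its values were seen. The same pattern was held by 1 gene, Bex4, for exercised WT muscle, and by 0 genes for exercised MKO or sedentary MKO muscle.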
